A study of Mus musculus with 10 samples.

Results

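Bile acids that reach the end of the small intestine are taken back by the epithelium of the ileum, and 10 genes of that route were followed: Slc10a2, Fabp6, Slc51a, Slc51b, Abcc2, Abcc3, Nr1h4, Nr0b2, Fgf15 and Osbpl3. They were taken by symbol from a table of raw counts with 13932 listed genes. All 10 were listed, and all 10 were among the 12477 genes with enough counts to be tested. The counts came from RNA of ileal epithelial cells, gated live, CD45-negative and EpCAM-positive, which keeps epithelium and removes leukocytes, with 400000 cells and 1 mouse per library. Both genotypes carried a floxed H2-Ab1, which codes for a beta chain of MHC class II. The 5 dIEC mice were H2-Ab1 fl/fl with Villin:Cre, a Cre recombinase expressed in intestinal epithelium from the villin promoter. The 5 WT mice were H2-Ab1 fl/fl without Cre. These genotypes follow the sample labels, since the series text lists both groups as Cre-negative. Every dIEC mouse and no WT mouse carried Cre, so what the deletion does and what Cre does cannot be told apart. Libraries dIEC 1, 3 and 5 came from males and dIEC 7 and 9 from females, and WT 2, 4 and 6 came from males and WT 8 and 10 from females. Ages were not given in the sources used here.

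The libraries held 9174101 to 13484363 counts. Levels are given as CPM, which are counts scaled by library size multiplied by a normalisation factor of each library (TMM). H2-Ab1 stood at 0.767 to 3.11 CPM in the 5 dIEC libraries and at 62.9 to 368 CPM in the 5 WT libraries. Summed over the 4 listed leukocyte markers of 18 looked for, the level was 3.07 to 8.37 CPM in dIEC and 3.002 to 5.98 CPM in WT. The sum over the 3 listed fibroblast and endothelial markers of 12 was 1.26 to 3.03 CPM in dIEC and 0.861 to 2.53 CPM in WT. Epithelial genes such as Epcam, Cdh1 and Vil1 summed to 10825 to 15601 CPM in dIEC and 10476 to 13539 CPM in WT. Transcripts of 5 erythroid genes, the haemoglobin genes and Alas2, set WT 8 and WT 10 apart, with sums of 0 and 0.179 CPM. The sums were 13.8 to 28.4 CPM over the dIEC libraries and 13.2 to 24.1 CPM in WT 2, 4 and 6. Libraries also differed in proliferation and mature enterocyte transcripts. The mean log2 CPM of 26 proliferation genes ran from 2.89 in dIEC 7 to 5.53 in dIEC 9, against 3.23 to 5.09 in WT.

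As background, Slc10a2 (also called ASBT) carries bile acids from the gut lumen into the enterocyte, Fabp6 binds them in the cytosol, and Slc51a and Slc51b form the paired exporter (OST alpha and OST beta) that releases them towards the blood. Inside the cell bile acids bind the nuclear receptor FXR, encoded by Nr1h4, which pairs with RXR and activates genes that include Fgf15, Fabp6, Slc51a, Slc51b and Nr0b2. Nr0b2 encodes SHP, a repressor without a DNA-binding domain. Fgf15 is a hormone that travels to the liver and represses bile acid synthesis there. Abcc2 (MRP2) pumps conjugates across the apical membrane and Abcc3 (MRP3) across the basolateral one. Osbpl3 encodes a protein of the oxysterol-binding protein family.

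Upstream sequences are shown for Slc10a2, Fabp6 and Nr1h4, the uptake carrier, the cytosolic binder and the receptor, because their levels moved together across the libraries, as described further on. The sequences come from the RefSeq promoter table on GRCm38.p6, in which 8 of the 10 genes had an entry. Capitals mark the IR-1 matches of Fabp6, the HNF1 half-site of Slc10a2, and the DR-1, GATA and HNF1 half-site matches of Nr1h4, motifs that are spelled out after the sequences. The lines run 5′ to 3′ on the strand of the gene, all minus, and cover chr8:5105352-5105537 for Slc10a2, chr11:43601563-43601812 for Fabp6 and chr10:89506659-89506908 for Nr1h4. They end just before the RefSeq start for Fabp6 and Nr1h4, which for Nr1h4 lies inside the gene's span in GENCODE M21, and just before the GENCODE M21 start for Slc10a2, which lies upstream of the RefSeq one.
Slc10a2: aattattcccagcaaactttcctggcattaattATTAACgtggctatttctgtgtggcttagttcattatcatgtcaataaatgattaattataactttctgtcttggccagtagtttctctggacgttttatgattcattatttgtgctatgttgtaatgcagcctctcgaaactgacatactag
Fabp6: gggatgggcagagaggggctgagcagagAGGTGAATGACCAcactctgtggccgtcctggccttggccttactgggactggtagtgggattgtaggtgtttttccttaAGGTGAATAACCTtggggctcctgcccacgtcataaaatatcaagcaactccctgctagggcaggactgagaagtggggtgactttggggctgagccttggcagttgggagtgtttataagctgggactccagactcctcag
Nr1h4: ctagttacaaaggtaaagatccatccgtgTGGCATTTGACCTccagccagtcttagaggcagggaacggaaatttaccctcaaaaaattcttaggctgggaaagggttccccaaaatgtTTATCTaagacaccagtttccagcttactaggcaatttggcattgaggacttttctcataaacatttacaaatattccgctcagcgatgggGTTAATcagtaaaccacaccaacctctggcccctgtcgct

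Motifs were searched on both strands of the 300 bases around each RefSeq start, of which 250 lie before it, and a match is a description of letters and not of binding. The element of FXR, called IR-1, is the half-site AGGTCA followed after 1 base by TGACCT, and up to 2 mismatches were allowed. The Fabp6 window held 2 such matches, each with 2 mismatches, beginning at bases -222 and -142 from the start (the first and the second block of capitals). Of 32851 promoters in the table, 1.14% held an IR-1 match, and among the 8 members with an entry Fabp6 was the one with any. The second match overlaps one of 3 matches of Fabp6 to the LRH-1 element, which is AGGTCA preceded by CA with 1 mismatch allowed and which 23% of promoters held. The Nr1h4 window held a DR-1 match (AGGTCA repeated after 1 base, 2 mismatches allowed) at -221, found in 3.86% of promoters, and the half-site AGGTCA inside it, found exactly in 16.3%. It also held the GATA letters AGATAA on the opposite strand at -131, found in 11.2%, and the HNF1 half-site GTTAAT at -40, found in 7.1%. In Slc10a2 the HNF1 half-site stood on the other strand at -217. Nr0b2 and Fabp6 each had a TATA box (TATAAA, in 13.6% of promoters), on the opposite strand in Fabp6. Nr0b2 also had 2 LRH-1 matches, Slc51a and Abcc2 each had an LRH-1 match and a half-site, Slc51b had a half-site, and Osbpl3 had no match to any of the 7 motifs.

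Per kilobase of exon, Fabp6 was the most abundant of the 10 transcripts, at a mean of 1878 CPM per kb over all 10 libraries, which put it at percentile 99.9 of tested genes. The exporter subunits followed, Slc51b at 237 and Slc51a at 106 CPM per kb, and then Abcc2 at 74.8 and the receptor gene Nr1h4 at 39.8 CPM per kb. Abcc3 at 17.5 and Fgf15 at 17.1 CPM per kb were next, and Osbpl3 at 8.57 and Slc10a2 at 8.20 CPM per kb after them. Within each of those last 2 pairs the levels lay closer together than the spread between libraries, which was 10.7 CPM per kb (SD, n = 10) for Fgf15 and 2.77 CPM per kb for Osbpl3. Nr0b2 was lowest, at 3.58 CPM per kb, under the median of tested genes of 5.64 CPM per kb. The carrier that brings bile acids in was thus measured at a far lower transcript level than the protein that binds them: Fabp6 exceeded Slc10a2 per kilobase by 141 to 365 times in dIEC libraries and by 147 to 395 times in WT libraries.

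**Figure D1:**
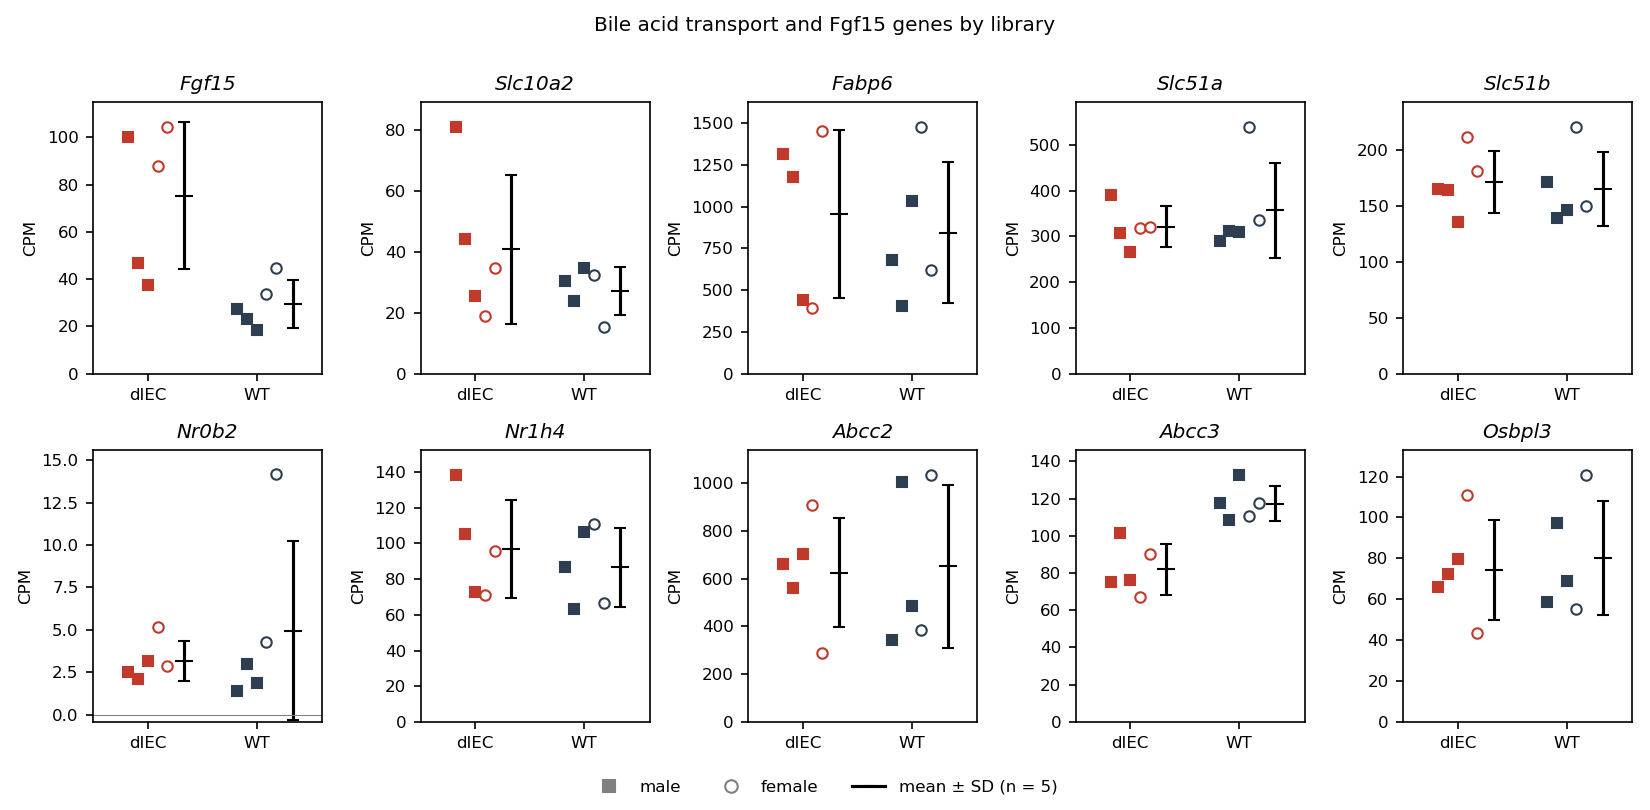
CPM of each of the 10 genes by library, dIEC left of WT, with squares for males, circles for females, and the mean with its SD (n = 5) beside each group. Fgf15 sits higher and Abcc3 lower in dIEC, while Fabp6 and Abcc2 spread several-fold within both genotypes.

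The main comparison set the 5 dIEC ilea against the 5 WT ilea. Fgf15, the hormone of the route, was at 2.58 times its WT level in dIEC by fitted value, and Abcc3, the basolateral conjugate exporter, at 0.70 times. The 8 other genes differed by less than their own variation between mice. None of the 10 genes passed the threshold in edgeR's quasi-likelihood test (adjusted p = 0.9999 for each, with an adjusted p under 0.05 needed), where 0.016% of all tested genes did. At an unadjusted p under 0.05 there were 2 of 10, Fgf15 and Abcc3, against 2.85% of all tested genes. By fitted value 5 of the 10 were higher in dIEC and 5 lower, with a median log2 fold change of -0.0023, while 52.6% of tested genes were higher with a median of 0.013. DESeq2, run on the same genes, called 1 of the 10, Fgf15, where it called 0.0321% of tested genes, and limma voom called none of the 10. In DESeq2, Fgf15 and Abcc3 were again the 2 with an unadjusted p under 0.05, against 4.09% of tested genes. The RNA is from bulk cells, so a lower share of a cell type and less RNA per cell cannot be told apart.

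Fgf15 (ENSMUSG00000031073; GRCm38 chromosome 7, 144896531 to 144900953, plus strand) was measured at 100.3, 46.6 and 37.5 CPM in dIEC males 1, 3 and 5 and at 87.8 and 104 CPM in dIEC females 7 and 9, against 27.5, 23.2 and 18.3 CPM in WT males 2, 4 and 6 and 33.6 and 44.6 CPM in WT females 8 and 10. The genotypes overlapped, because dIEC 5 lay below WT 10. Within each sex they did not: every dIEC male was above every WT male, and both dIEC females were above both WT females, a pattern that 0.465% of tested genes showed in this direction. The mean was 75.3 ± 31.1 CPM in dIEC and 29.4 ± 10.2 CPM in WT (SD, n = 5 each). The log2 fold change was 1.37 (SE 0.26, unadjusted p = 0.000307), rank 3 by p among 12477 genes. In males alone it was 1.42 (SE 0.36) and in females alone 1.30 (SE 0.34). The WT females, WT 8 and WT 10, were the libraries set apart by erythroid transcripts. Within females that difference and genotype cannot be told apart. Under 23 alternative fits the log2 fold change of Fgf15 stayed between 1.07, without dIEC 1, and 1.50, without dIEC 5. DESeq2 was the fit that called Fgf15 (adjusted p = 0.00321).

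The gene overlaps 2 antisense transcripts. One of them, Gm26793, was listed with 1 to 12 counts per library, 0.294% to 1.51% of the count of Fgf15. The sources used here do not say whether strand was used in counting, and reads of a gene and its antisense partner then cannot be told apart. The nearest tested protein-coding genes on either side of Fgf15 were Ano1 at 145 kb (log2 fold change 0.12, SE 0.21) and Oraov1 at 14.1 kb (0.21, SE 0.19).

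Genes that mark the regions of the small intestine are given beside Fgf15, itself an ileal gene. Of 18 tested genes of distal (ileal) enterocytes, 17 were higher in dIEC by fitted value, with a median log2 fold change of 0.33. Over all tested genes 52.6% were higher, with a median of 0.013. None of the 18 distal genes was called by edgeR, and 4 had an unadjusted p under 0.05 in edgeR, against 2.85% of all tested genes. Their mean log2 CPM was 8.63 to 9.81 in dIEC and 8.51 to 9.43 in WT. Examples at the highest levels were the peptidase gene Naaladl1, at 3432 ± 1014 CPM in dIEC and 2684 ± 545 CPM in WT, and the cobalamin receptor gene Cubn, at 2729 ± 1043 CPM in dIEC and 1975 ± 1027 CPM in WT (SD, n = 5 each). Of 15 tested genes of proximal enterocytes, 13 were lower in dIEC, with a median of -0.16 and no call in edgeR. The mean log2 CPM of that list was 7.33 to 9.19 in dIEC and 8.16 to 9.46 in WT. The fatty acid carrier gene Fabp1 averaged 712 ± 347 CPM in dIEC and 1470 ± 862 CPM in WT (SD, n = 5 each). Its log2 fold change of -0.87 (SE 0.41) was the farthest from 0 on the proximal list. The more abundant proximal genes Fabp2, Apoa4 and Lct stood at -0.022 (SE 0.28), 0.035 (SE 0.71) and -0.026 (SE 0.48). With the proximal mean as a covariate, the log2 fold change of Fgf15 was 1.24 (SE 0.23, edgeR adjusted p = 0.376). The part of the distal genes in the Fgf15 difference was not tested.

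Uptake and binding came next. Slc10a2 (ENSMUSG00000023073; chromosome 8, 5083219 to 5105351, minus strand), the apical uptake carrier, stood at 81.0, 44.1 and 25.6 CPM in dIEC 1, 3 and 5 and 18.8 and 34.5 CPM in dIEC 7 and 9, against 30.3, 23.8 and 34.7 CPM in WT 2, 4 and 6 and 32.4 and 15.2 CPM in WT 8 and 10. One library, dIEC 1, lay far above the rest, and the remaining dIEC values lay among or near the WT ones. The mean was 40.8 ± 24.4 CPM in dIEC and 27.3 ± 7.86 CPM in WT (SD, n = 5 each), and the log2 fold change was 0.53 (SE 0.34, unadjusted p = 0.147 in edgeR). Without dIEC 1 it was 0.20.

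Fabp6 (ENSMUSG00000020405; chromosome 11, 43596049 to 43601540, minus strand), the ileal bile acid binding protein, had the largest spread of the 10 on the log2 scale once genotype and sex were taken out (residual SD 0.87). It was at 1315, 1176 and 440.0 CPM in dIEC 1, 3 and 5 and 394 and 1452 CPM in dIEC 7 and 9, against 679, 405 and 1036 CPM in WT 2, 4 and 6 and 1477 and 619.8 CPM in WT 8 and 10. High and low libraries occurred in both genotypes and in both sexes. The mean was 956 ± 502 CPM in dIEC and 843 ± 421 CPM in WT (SD, n = 5 each; log2 fold change 0.21, SE 0.45). Other members of the fatty acid binding family, besides Fabp1 above, were Fabp2 with a log2 fold change of -0.022 (SE 0.28) and Fabp5 with 0.44 (SE 0.32). None of the 4 tested members of that family was called by edgeR.

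The paired exporter was among the steadiest of the 10. Slc51a (ENSMUSG00000035699; chromosome 16, 32474504 to 32487879, minus strand) ranged from 267 to 391 CPM in dIEC and from 290.2 to 539 CPM in WT, and WT 8 was the high library. Its log2 fold change was -0.13 (SE 0.18), and 0.048 without WT 8. Slc51b (ENSMUSG00000053862; chromosome 9, 65412714 to 65422955, minus strand) ranged from 136 to 211 CPM in dIEC and from 139 to 220.3 CPM in WT, with a log2 fold change of 0.050 (SE 0.14). Plus and minus 2 SE, the fold changes spanned -0.50 to 0.24 for Slc51a and -0.23 to 0.34 for Slc51b. Per kilobase the ratio of Slc51a to Slc51b was 0.334 to 0.527 in dIEC and 0.377 to 0.543 in WT. By that measure the beta subunit transcript was the more abundant in each of the 10 libraries. In counts the order was the reverse, with Slc51a at 151% to 238% of Slc51b in dIEC and 170% to 245% in WT. The order thus rests on the exon lengths used, 3198 bases for Slc51a and 709 for Slc51b. Exons of Slc51a overlap those of Pcyt1a on the opposite strand, which averaged 332 ± 132 CPM in dIEC and 310.2 ± 108 CPM in WT (SD, n = 5 each). Slc51b overlaps Rasl12, which was at 0.105 to 0.925 CPM in dIEC and 0.235 to 0.962 CPM in WT.

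The exporters of conjugates were measured next. Abcc3 (ENSMUSG00000020865; chromosome 11, 94343295 to 94392997, minus strand), on the basolateral side, was at 75.3, 102 and 76.1 CPM in dIEC 1, 3 and 5 and 67.0 and 90.4 CPM in dIEC 7 and 9, against 118, 108 and 133 CPM in WT 2, 4 and 6 and 111 and 117 CPM in WT 8 and 10. The genotypes did not overlap, and all 5 dIEC libraries were lower. Such a separation in this direction occurred in 0.136% of tested genes, and 0.761% had it within males and within females. The mean was 82.1 ± 13.8 CPM in dIEC and 117 ± 9.46 CPM in WT (SD, n = 5 each), and the log2 fold change was -0.52 (SE 0.14, unadjusted p = 0.00321, rank 11 by p). It kept its sign in 23 alternative fits, from -0.60 to -0.45, and was called in none of them (lowest adjusted p = 0.103 in edgeR with the proliferation score as a covariate, and 0.405 in DESeq2).

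Abcc2 (ENSMUSG00000025194; chromosome 19, 43782192 to 43840740, plus strand), on the apical side, was at 663, 562 and 703 CPM in dIEC 1, 3 and 5 and 908 and 288 CPM in dIEC 7 and 9, against 344, 1004 and 486 CPM in WT 2, 4 and 6 and 386 and 1033 CPM in WT 8 and 10. Among dIEC libraries the females 7 and 9 held the highest and lowest values, and in WT the highest was female 10 and the lowest male 2, so high and low libraries occurred in both genotypes. The log2 fold change was -0.055 (SE 0.40), and its sign turned in 8 of 23 alternative fits. None of 13 other tested carriers and enzymes for bile acids and conjugates was called by edgeR, with 5 higher and 8 lower in dIEC and a median of -0.051. The bilirubin conjugating enzyme gene Ugt1a1 averaged 416 ± 38.3 CPM in dIEC and 574 ± 198 CPM in WT (SD, n = 5 each). The log2 fold change was -0.20 (SE 0.18) for the sulfotransferase gene Sult1b1 and -0.11 (SE 0.18) for the glucuronosyltransferase gene Ugt2b34.

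Nr1h4 (ENSMUSG00000047638; chromosome 10, 89454234 to 89533585, minus strand), which encodes FXR, stood at 138, 105 and 72.9 CPM in dIEC 1, 3 and 5 and 71.3 and 95.9 CPM in dIEC 7 and 9, against 86.6, 63.0 and 106 CPM in WT 2, 4 and 6 and 111 and 66.5 CPM in WT 8 and 10. The ranges overlapped for most of their length, with dIEC 1 highest. The log2 fold change was 0.15 (SE 0.23). The 10 tested genes of FXR partners, coregulators and other bile acid sensors held 6 higher and 4 lower in dIEC, with a median of 0.071 and no call in edgeR. Of these, the FXR partner gene Rxra averaged 203 ± 52.0 CPM in dIEC and 197 ± 34.2 CPM in WT, and the vitamin D receptor gene Vdr 545 ± 97.9 CPM in dIEC and 464 ± 94.3 CPM in WT (SD, n = 5 each). Among 18 listed regulators of ileal bile acid genes, most of them transcription factors, 11 were higher and 7 lower, with none called. The nuclear receptor genes Hnf4a and Hnf4g stood at log2 fold changes of 0.11 (SE 0.17) and -0.12 (SE 0.20).

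Nr0b2 (ENSMUSG00000037583; chromosome 4, 133553376 to 133556536, plus strand), the SHP gene, was the least counted member, with 17 to 158 counts per library. It lay between 2.10 and 5.17 CPM in dIEC and between 1.41 and 14.2 CPM in WT, and the highest WT value was WT 10 alone, the next being 4.25 CPM in WT 8. The log2 fold change was -0.34 (SE 0.44), and 0.18 without WT 10. Genes reported to respond to FXR in mouse intestine, other than the members, numbered 8 tested, with 3 higher, 5 lower and none called by edgeR. The inducible nitric oxide synthase gene Nos2, one of them, averaged 256 ± 122 CPM in dIEC and 127 ± 108 CPM in WT, and the cytokine gene Il18 averaged 21.5 ± 6.70 CPM in dIEC and 41.5 ± 28.5 CPM in WT (SD, n = 5 each). Their log2 fold changes, 1.55 (SE 0.77) for Nos2 and -0.77 (SE 0.33) for Il18, were the farthest from 0 on that list. Cyp3a11, the most abundant, stood at -0.24 (SE 0.53), and Sdc1 at 0.051 (SE 0.18).

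For the hormone's release and reception, 5 genes were tested and none was called by edgeR. Malrd1, whose product is known in mice to promote Fgf15 release, had a log2 fold change of 0.21 (SE 0.19). The log2 fold changes of the receptor genes were -0.30 (SE 0.14) for Fgfr3 and 0.11 (SE 0.19) for Fgfr2. Fgfr4 and Klb, the receptor and co-receptor that Fgf15 uses on liver cells, averaged 2.52 ± 1.34 and 0.809 ± 0.387 CPM in dIEC and 2.61 ± 0.935 and 0.893 ± 0.571 CPM in WT (SD, n = 5 each).

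Osbpl3 (ENSMUSG00000029822; chromosome 6, 50293330 to 50456201, minus strand) was at 65.8, 72.5 and 79.5 CPM in dIEC 1, 3 and 5 and 111 and 43.6 CPM in dIEC 7 and 9, against 58.8, 97.2 and 68.9 CPM in WT 2, 4 and 6 and 55.3 and 121 CPM in WT 8 and 10. In both genotypes the 2 female libraries held the highest and lowest values. The log2 fold change was -0.10 (SE 0.28). Of the 11 tested oxysterol-binding family genes, Osbpl3 among them, 9 were higher and 2 lower in dIEC, with a median of 0.085 and none called by edgeR. For the founding member Osbp the log2 fold change was -0.041 (SE 0.15), and for Osbpl6 0.079 (SE 0.31). The 10 genes of sterol uptake and export, led by the cholesterol carrier gene Npc1l1 (0.26, SE 0.42), held 8 higher and 2 lower and none called by edgeR.

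**Figure D2:**
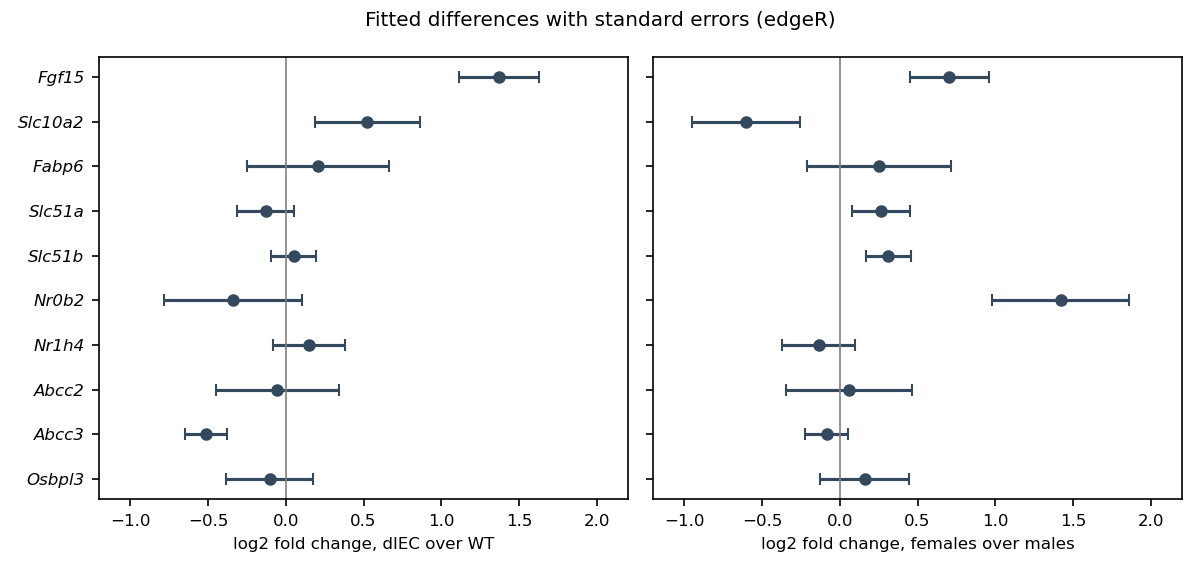
Fitted log2 fold changes of the 10 genes (points) with their standard errors (bars) from edgeR, dIEC over WT in the left panel and females over males in the right. Fgf15 at 1.37 and Abcc3 at -0.52 lie farthest from 0 relative to their bars on the left, and Nr0b2 at 1.42 on the right.

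Females were also compared with males, with genotype in the model. None of the 10 genes passed in edgeR (adjusted p = 0.9996), where 0.0401% of tested genes did, and none in limma voom or in DESeq2, which called 0.0721% of tested genes. Fgf15 and Nr0b2 were the 2 with an unadjusted p under 0.05, against 4.44% of tested genes in edgeR and 5.25% in DESeq2. Nr0b2 averaged 6.62 ± 5.12 CPM in 4 females and 2.34 ± 0.673 CPM in 6 males (SD), a log2 fold change of 1.42 (SE 0.44, unadjusted p = 0.00866 in edgeR), and 0.78 without WT 10. Fgf15 averaged 67.6 ± 33.9 CPM in females and 42.3 ± 30.2 CPM in males (SD), a log2 fold change of 0.70 (SE 0.26, unadjusted p = 0.0197 in edgeR). Slc10a2 went the other way, with 25.3 ± 9.64 CPM for the females against 39.9 ± 21.4 CPM for the males (SD; log2 fold change -0.61, SE 0.35), and its fold change was -0.34 without dIEC 1 and -0.97 without WT 8. For all 10 genes the sexes overlapped.

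Whether the difference between genotypes itself differed between the sexes was tested by the interaction term. No member passed in limma voom, in edgeR (0.00801% of tested genes did) or in DESeq2 (0.128% did). None had an unadjusted p under 0.05 in edgeR or DESeq2, where 2.1% and 2.65% of tested genes did. The farthest from 0 was Nr0b2 (-1.53, SE 0.78, unadjusted p = 0.0816 in edgeR), and -0.42 without WT 10. For Fgf15 the term was -0.12 (SE 0.55), and for Abcc3 -0.030 (SE 0.29).

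**Figure D3:**
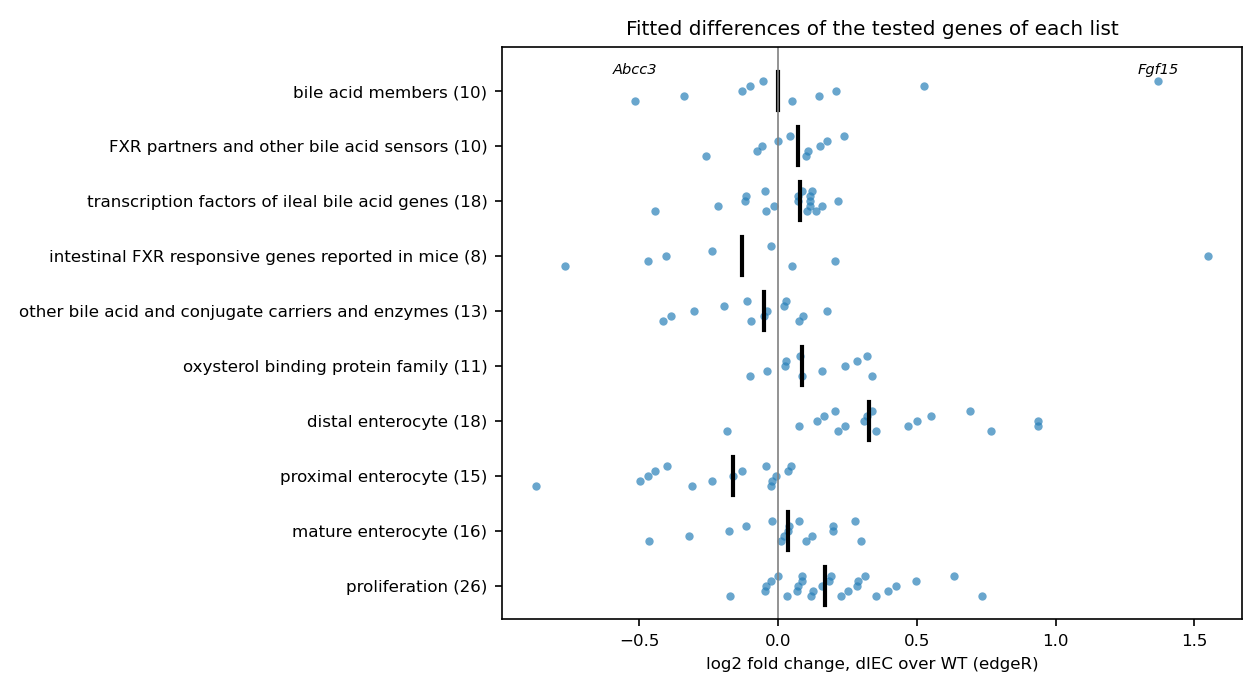
Fitted log2 fold changes, dIEC over WT, of the tested genes in each list, with 1 point per gene, the number tested in parentheses and a black bar at the median. Fgf15 at 1.37 and Abcc3 at -0.52 stand at the ends of the 10 bile acid genes, whose median is -0.0023, while 17 of 18 distal enterocyte genes lie right of 0 and 13 of 15 proximal ones left of it. Of all tested genes 52.6% were right of 0.

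How the 10 genes varied with each other across the 10 libraries was the last question. Pearson's r of log2 CPM was computed for their 45 pairs and for each gene with the mean log2 CPM of the proliferation genes and of 16 mature enterocyte genes, 65 relations in all, with two-sided permutation tests of 100000 resamples and Benjamini-Hochberg adjustment over the 65. The p-values given are those of r unless rho is named. The points share a library, its scaling and its mix of cells. In all 7 relations passed, in 2 groups of genes. One group was Slc10a2, Fabp6 and Nr1h4, and the other was Abcc2 and Osbpl3 with both scores. Over the 45 pairs 24 were positive and 21 negative, with a median r of 0.050. How often pairs of other tested genes, or other genes with the 2 scores, would pass was not tested. The 7 relations are therefore not shown to be particular to these genes.

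Uptake carrier, binder and receptor formed the first group. Slc10a2 and Nr1h4 gave r = 0.897 (rho = 0.879, permutation p = 0.00028, adjusted p = 0.0039, n = 10), and r = 0.836 without dIEC 1 and WT 10, the libraries farthest from the median of Slc10a2. Fabp6 and Nr1h4 gave r = 0.878 (rho = 0.830, permutation p = 0.00209, adjusted p = 0.0194, n = 10), and r = 0.821 without dIEC 7 and WT 4. Slc10a2 and Fabp6 gave r = 0.697, which did not pass (rho = 0.733, permutation p = 0.0185, adjusted p = 0.10), and r = 0.845 without dIEC 1 and WT 10. After genotype and sex were taken out, r was 0.950 for Slc10a2 with Nr1h4, 0.926 for Fabp6 with Nr1h4 and 0.900 for Slc10a2 with Fabp6. The 3 genes were thus high together in libraries such as dIEC 1 and dIEC 3 and low together in dIEC 7 and WT 4.

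The apical exporter and Osbpl3 formed the second. Abcc2 and Osbpl3 gave r = 0.946 (rho = 0.939, permutation p = 2e-05, adjusted p = 0.00065, n = 10), and r = 0.924 without dIEC 9 and WT 2. Both followed the mature enterocyte score, which holds genes of the villus brush border such as Alpi, Sis and Anpep but neither of these 2. With that score r was 0.966 for Abcc2 (rho = 0.915, permutation p = 4e-05, adjusted p = 0.000867) and 0.961 for Osbpl3 (rho = 0.952, permutation p = 2e-05, adjusted p = 0.00065), and 0.964 and 0.924 without dIEC 7 and dIEC 9. With the proliferation score r was -0.881 for Abcc2 (rho = -0.891, permutation p = 0.00117, adjusted p = 0.0127) and -0.915 for Osbpl3 (rho = -0.830, permutation p = 0.0003, adjusted p = 0.0039), and -0.867 and -0.828 without dIEC 7 and WT 10. The mature score itself was 10.56, 10.67 and 11.03 in dIEC 1, 3 and 5 and 11.51 and 9.70 in dIEC 7 and 9, against 10.04, 11.34 and 10.56 in WT 2, 4 and 6 and 10.14 and 11.24 in WT 8 and 10.

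Between the first group and Abcc2, Osbpl3 and the mature score the signs were negative. Fabp6 with Osbpl3 gave r = -0.763 (rho = -0.830, permutation p = 0.0119, adjusted p = 0.0791), and Fabp6 with the mature score r = -0.788 (rho = -0.830, permutation p = 0.0104, adjusted p = 0.0791). Neither passed by r, and both passed by rank (permutation p of rho = 0.00467 and 0.00484, adjusted p = 0.0362 for each). Without dIEC 7 and WT 4 the r of Fabp6 with Osbpl3 was -0.631, and without dIEC 7 and dIEC 9 that of Fabp6 with the mature score was -0.672. With the proliferation score the signs were positive, with r = 0.639 for Slc10a2 (rho = 0.709, permutation p = 0.0454, adjusted p = 0.164), 0.712 for Fabp6 (rho = 0.661, permutation p = 0.0251, adjusted p = 0.126) and 0.655 for Nr1h4 (rho = 0.564, permutation p = 0.0437, adjusted p = 0.164), none of which passed. Without dIEC 7 and WT 10 these r were 0.257, 0.624 and 0.481. Nr0b2 with the proliferation score gave r = -0.727 (permutation p = 0.0126, adjusted p = 0.0791), which passed by rank alone (rho = -0.818, permutation p = 0.00589, adjusted p = 0.0383), and r = -0.447 without dIEC 7 and WT 10.

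Fgf15 belonged to neither group. It had r = 0.231 with Nr1h4 (rho = 0.164, permutation p = 0.513), -0.069 with the proliferation score (rho = 0.018, permutation p = 0.841) and -0.089 with the mature score (rho = -0.127, permutation p = 0.801), each over 10 libraries. Its strongest relation among the members was with Abcc3, at r = -0.755 (rho = -0.746, permutation p = 0.0134, adjusted p = 0.0791), which did not pass, and r = -0.767 without dIEC 1 and dIEC 9. After genotype and sex were taken out that r was -0.18, so within groups the relation did not hold. The exporter subunits Slc51a and Slc51b gave r = 0.627 (rho = 0.552, permutation p = 0.044, adjusted p = 0.164), which did not pass, and 0.36 without dIEC 1 and WT 8. After genotype and sex were taken out that r was 0.56, and it ran from 0.27 to 0.78 on leaving out each library.

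**Figure D4:**
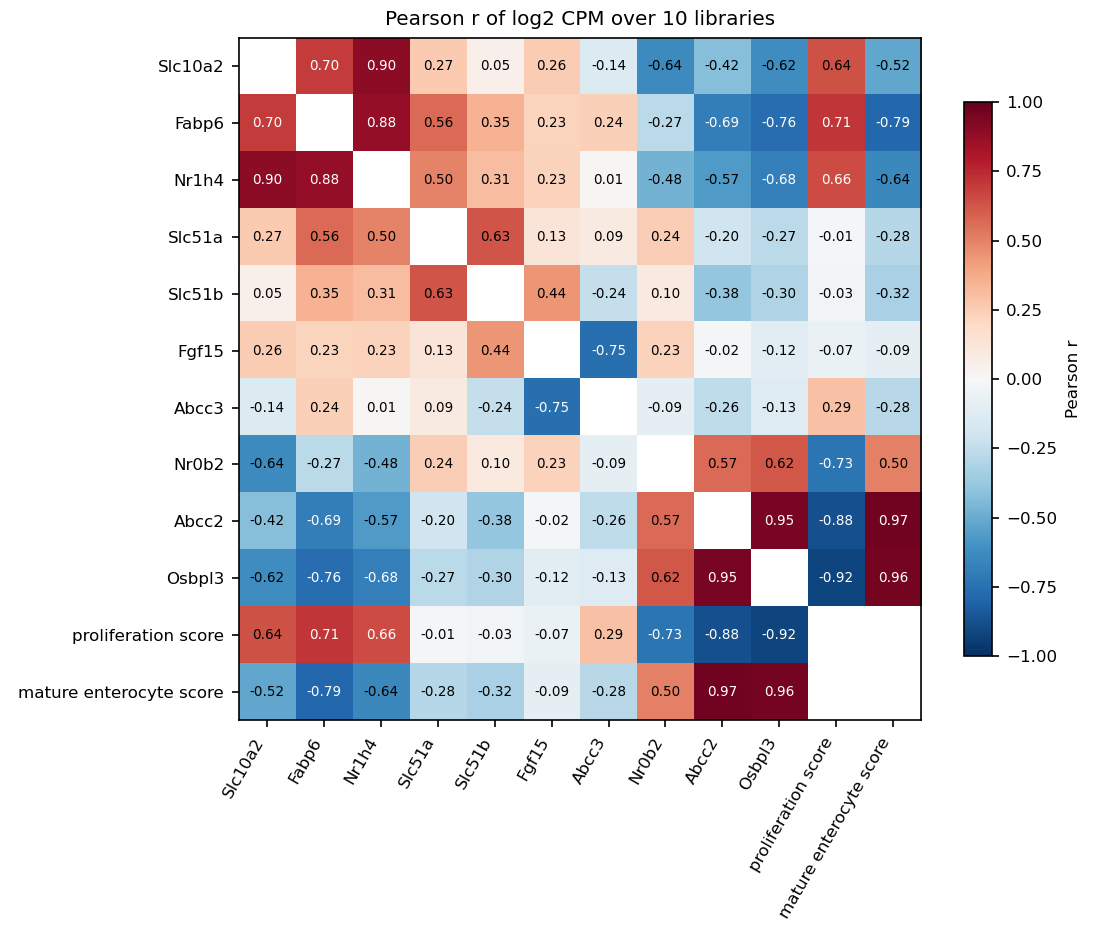
Pearson r of log2 CPM over the 10 libraries for each pair of the 10 genes and for each gene with the proliferation and mature enterocyte scores, red for positive and blue for negative. Slc10a2, Fabp6 and Nr1h4 form a red block at the upper left, and Abcc2 and Osbpl3 (r = 0.946) a second one that is red with the mature score and blue with the proliferation score.

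**Figure D5:**
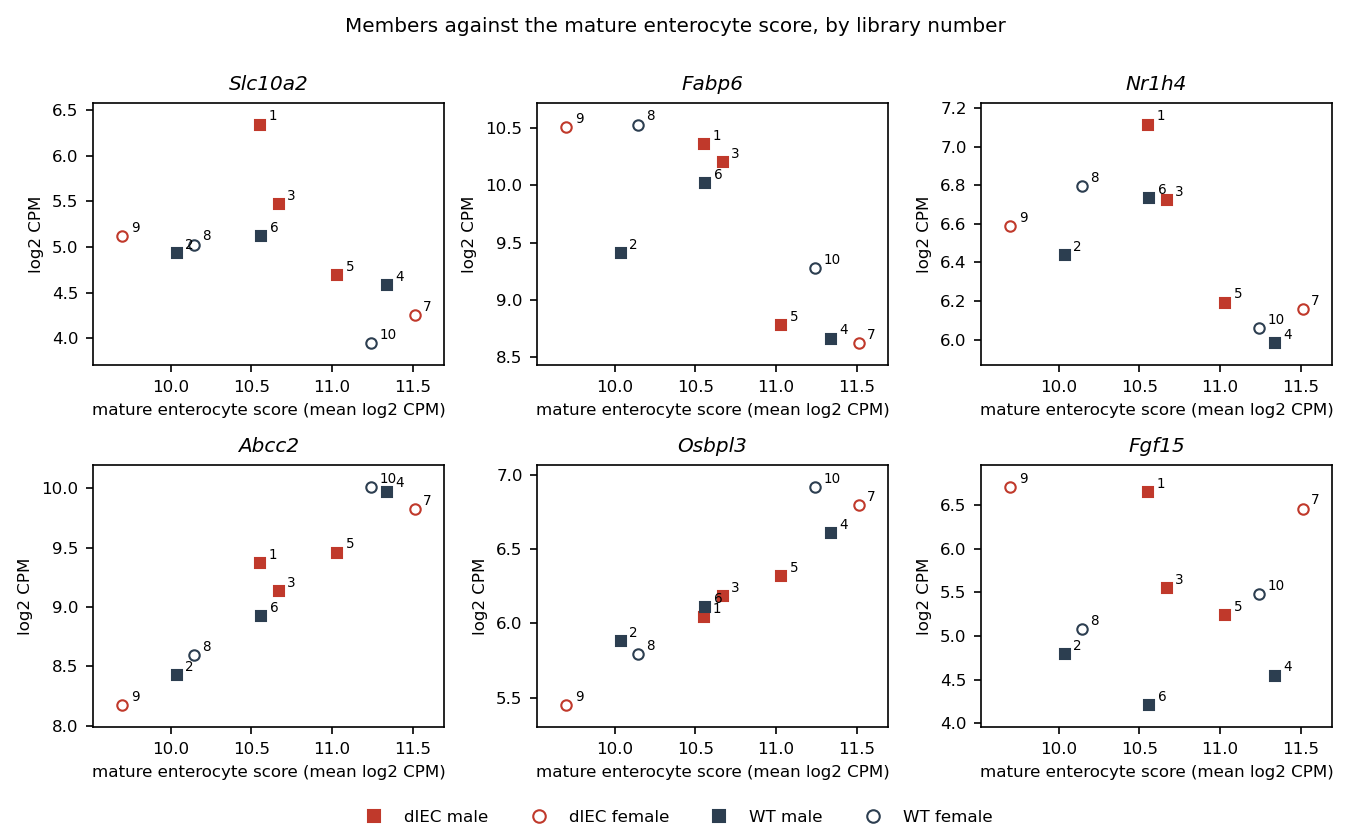
Log2 CPM of 6 of the genes (vertical axis) against the mature enterocyte score, the mean log2 CPM of 16 genes (horizontal axis), with 1 point per library, numbered as in the labels, red for dIEC and dark blue for WT. Abcc2 (r = 0.966) and Osbpl3 (r = 0.961) climb along the axis, Fabp6 (r = -0.788, which did not pass) runs down, and Fgf15 (r = -0.089) shows the dIEC points above the WT points of the same sex.

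The spread that remained after genotype and sex also set the genes apart. The residual SD of log2 CPM was 0.87 for Fabp6, 0.74 for Abcc2, 0.70 for Nr0b2 and 0.61 for Slc10a2, against a median of 0.35 over tested genes. It was 0.28 for Slc51a, 0.20 for Slc51b and 0.19 for Abcc3, and 7 of the 10 genes lay above that median.

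The genes whose level followed each member most closely were taken from 11163 genes, by Pearson r over the 10 libraries and as a description. For Fgf15 they were Brd8 (0.897), Jrkl (0.873) and Vamp4 (0.866), and for Abcc3 Spef1 (0.896), Muc4 (0.894) and Usp36 (0.885). For Slc10a2 they were Fam129c (0.939), Aim2 (0.928) and D3Ertd254e (0.910). For Fabp6 they were Stambpl1 (0.939), Rpl31-ps8 (0.938) and Tst (0.934), and for Nr1h4 Syk (0.980), Slc13a1 (0.929) and Kif3a (0.914). The closest to Abcc2 were Ric1 (0.992), Klhdc3 (0.988) and Sertad2 (0.985), and to Osbpl3 Slc16a3 (0.993), Itfg3 (0.991) and Tnks (0.990). Slc51a had Slc25a24 (0.939), Cdkn2b (0.935) and Gnai3 (0.933), Slc51b had Cldn23 (0.946), Fbxw2 (0.919) and Nmi (0.883), and Nr0b2 had Dnajb4 (0.939), G6pdx (0.931) and Slc25a25 (0.917). Abcc2 and Osbpl3 thus had the closest companions, and Fgf15 and Abcc3 the least close ones, and none of these 30 genes was called between dIEC and WT by edgeR.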

How the data were processed

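RNA was measured in 10 libraries of sorted ileal epithelium, 5 per genotype. Per the labels' protocols, RNA was depleted of ribosomal RNA and made into stranded libraries. The authors deposited raw counts, 1 row per gene. The submitters' processing notes name Novoalign and the mm10 genome. The counting program, the annotation and any use of strand were not given in the sources used here. Library totals ran from 9174101 to 13484363 counts, and counting error is one part of the spread between mice. Within a group, counts of any 2 libraries differed by more than sampling noise (chi-square per degree of freedom 16 to 152).

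Of 13932 genes, 12477 (89.6%) passed filterByExpr, and libraries were scaled by TMM. edgeR 4.0.16 (R 4.3.3) fitted a robust quasi-likelihood model on sex plus genotype, and a second with their interaction, with Benjamini-Hochberg adjustment over all tested genes and calls at an adjusted p under 0.05. A standard error is the absolute log2 fold change divided by the root of F. DESeq2 1.42.0 and limma 3.58.1 (voom) were alternatives. Log2 CPM used a prior count of 2. Exon lengths and coordinates come from GENCODE M21, and a length is the union of all annotated exons of a gene. The fits and the permutation tests were tested on simulated data.

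The members and gene lists were chosen with earlier results of these data known. All 10 members are named, with the 3 genes most alike to each (at least 1 CPM, no gene models), up to 4 genes of every other list taken from the highest in mean CPM or called, and H2-Ab1. Klb, chosen after its values were seen, and the nearest tested protein-coding genes of some members are given beside them. Symbols in the lists that the table does not pair with counts were not analysed here. The alternatives were other size factors, library size, other filters, other covariates, each sex alone and leaving out each library. Fits without dIEC 7 and dIEC 9 and with the proximal or the mature enterocyte score were added after seeing the data.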

Additional observations from a re-analysis of the deposited data

Results flagged for a closer look

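In groups of 4 to 6 libraries, by genotype or by sex, a value was singled out where its gap to the nearest other was large for the range of the group. Of 56 groups examined 6 met this, and 5% of the groups would be about 2.8. That number holds for independent groups of normally distributed values. The groups by genotype and by sex share libraries, and those by sex mix genotypes, so it is a rough guide only. In males, dIEC 1 was high for Fgf15 (100.3 CPM), for Slc10a2 (81.0 CPM) and for Slc51a (391 CPM). Among the 5 WT libraries and also among the 4 females, WT 8 was high for Slc51a (539 CPM). Among the WT libraries, WT 10 was high for Nr0b2 (14.2 CPM). No member's difference between genotypes was found to differ between the sexes by the interaction test.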

How the results depend on the processing

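No paired analysis was run, because the sample labels name no pairs of mice across the genotypes. With 5 mice per genotype, differences smaller than the spread between mice could not be detected, and Nr0b2 rests on as few as 17 counts. In refits of single members between dIEC and WT, 205 values kept direction and side of the threshold, 24 turned sign and 1 passed (Fgf15 in DESeq2, log2 fold change 1.37); the causes were not tested. The genes called were 2 (dIEC against WT), 5 (sexes) and 1 (interaction). They became 4, 9 and 16 in DESeq2, 4, 522 and 14 with the proliferation score, 0 in females alone for the genotypes, 0 for the sexes with at least 10 counts in every library of a genotype, and 0 with library size and 2 in voom for the interaction, which gave 0 to 1 on leaving out each library. The relations that passed were 7, against 22 with library size, 10 by Spearman's rho, 16 after genotype and sex were taken out and 3 without the 2 farthest libraries.

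Log2 fold changes that turned sign, dIEC over WT, were Fabp6 (-0.18 in females alone, -0.17 with the proximal score), Slc51a (0.084 in males alone, 0.087 without dIEC 7 and dIEC 9), Nr0b2 (0.33 in both), Nr1h4 (-0.084 in females alone), Abcc2 (0.015 in voom, 0.089 with the proliferation score, 0.085 in males alone, 0.074 without dIEC 7 and dIEC 9, 0.28 with the proximal score) and Osbpl3 (0.091 with the proximal score). For females over males they were Nr1h4 (0.014), Abcc2 (-0.47) and Osbpl3 (-0.24) with the proliferation score, and Abcc2 (-0.048 with library size, -0.041 in voom). For the interaction they were Fgf15 (0.0053) and Abcc3 (0.12) with library size. On leaving out each library, dIEC over WT ran from -0.034 to 0.51 for Fabp6, -0.25 to 0.048 for Slc51a, -0.033 to 0.14 for Slc51b, -0.54 to 0.18 for Nr0b2, -0.0049 to 0.32 for Nr1h4, -0.31 to 0.24 for Abcc2 and -0.33 to 0.11 for Osbpl3. Females over males ran from -0.16 to 0.57 for Fabp6, -0.31 to 0.33 for Abcc2 and -0.11 to 0.38 for Osbpl3. The interaction ran from -0.38 to 0.43 for Fgf15, -1.10 to 0.11 for Slc10a2, -1.88 to 0.18 for Fabp6, -0.20 to 0.40 for Slc51b, -0.72 to 0.074 for Nr1h4, -1.38 to 0.56 for Abcc2, -0.26 to 0.16 for Abcc3 and -0.98 to 0.52 for Osbpl3.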

Other observations

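Per kilobase, the basolateral conjugate exporter transcript Abcc3 was at 0.110 to 0.47 of the apical one, Abcc2, in dIEC libraries and at 0.162 to 0.512 in WT libraries. The lowest ratio was that of dIEC 7, the library with the highest mature enterocyte score. The genes on the 2 sides of Abcc3 were Ankrd40 at 1.45 kb and Epn3 at 96.6 kb. Their log2 fold changes dIEC over WT were -0.11 (SE 0.12) and 0.094 (SE 0.40). Those of Slc10a2 were Shcbp1 at 304 kb, with 0.43 (SE 0.53), and Efnb2 at 3512 kb, with 0.048 (SE 0.14). At 29.5 kb from Osbpl3 lay Dfna5, which averaged 104 ± 37.0 CPM in dIEC and 69.7 ± 30.9 CPM in WT (SD, n = 5 each; log2 fold change 0.60, SE 0.31). These neighbours were taken by position as the nearest tested protein-coding genes on a side, at whatever distance.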
